A study of Mus musculus with 7 samples.

Results

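The laminin chain genes are the mouse genes for the subunits from which laminins are built. Of these genes, 9 were taken by name from the probes of the array, namely Lama1, Lama2, Lama3, Lama4 and Lama5 for alpha chains, Lamb1, Lamb2 and Lamb3 for beta chains and Lamc1 for a gamma chain. They were read by 11 probes, 2 each for Lama2 and Lama3 and 1 for each of the others, and they are 9 of 36373 gene names on the array. Each laminin is a cross-shaped protein of 1 alpha, 1 beta and 1 gamma chain, and its name gives the chain numbers, so that laminin 511 holds the chains alpha 5, beta 1 and gamma 1. Cells secrete the assembled trimer, which polymerises on the cell surface, binds integrins and dystroglycan, and forms the sheet on which the rest of a basement membrane is laid down. In the limb bud such a membrane separates the covering epithelium from the mesenchyme beneath it, and further laminins surround muscle fibres, vessels and nerves.

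C57/Bl6 embryos of embryonic day 11.5 gave the forelimbs, with no mutation or treatment in either group. For 3 arrays the apical ectodermal ridge (AER) was microdissected, a raised band of epithelium along the edge of the limb bud whose secreted signals keep the limb growing. Surface ectoderm of the posterior limb was the control, on 4 arrays. Tissue of 2 to 3 mice was pooled for each array, so replicate error here is error between pools, and the pieces were dissected tissue, not sorted cells. The comparison asked which genes set the ridge apart from the epithelium next to it.

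The sequences printed here show where the signal was read and what lies before the start of 4 chains that differed and have a RefSeq window. The probes of the array are 60 bases long. Those of Lama4 and Lamb2 are shown because these chains were not raised in the ridge, and each read without a stop codon in 1 of its frames. The Lama4 probe lay at chr10:38825794-38825853 and the Lamb2 probe at chr9:108392189-108392248, both on the plus strand of the mm9 build. Probe sequences run 5′ to 3′.
Lama4 probe: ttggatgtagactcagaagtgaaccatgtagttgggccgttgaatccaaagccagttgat
Lamb2 probe: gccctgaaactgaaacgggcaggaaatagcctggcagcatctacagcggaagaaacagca

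The other probes are given by position on mm9. The Lama1 probe lay at chr17:68171924-68171983, the Lama5 probe at chr2:179911079-179911138, the Lamb1 probe at chr12:32014411-32014470, the Lamb3 probe at chr1:195170009-195170068 and the Lamc1 probe at chr1:155066156-155066215. The Lama2 probe used for the gene lay at chr10:26701380-26701439 and the second at chr10:26701254-26701313, 66 bases from the first. The letters AATAAA, a polyadenylation signal, occurred in 3 of the 11 probes, which were the second Lama2 probe, the dimmer Lama3 probe and the Lamb3 probe. The exon or untranslated region under each probe was not looked up.

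Promoter windows of RefSeq on the GRCm38.p6 build were found for 5 of the 9 genes. The 250 bases before the start are shown for Lama5, Lamb1 and Lamb3, which were higher in the ridge arrays, and for Lama2, which was lower (Lama1 and Lamc1 have none here), 5′ to 3′ on the strand of the gene. Capitals mark the GC box, GGGCGG, and its reverse complement. The windows lay at chr2:180225860-180226109 on the minus strand for Lama5, at chr12:31265043-31265292 on the plus strand for Lamb1, at chr1:193301744-193301993 on the plus strand for Lamb3 and at chr10:27616943-27617192 on the minus strand for Lama2.
Lama5: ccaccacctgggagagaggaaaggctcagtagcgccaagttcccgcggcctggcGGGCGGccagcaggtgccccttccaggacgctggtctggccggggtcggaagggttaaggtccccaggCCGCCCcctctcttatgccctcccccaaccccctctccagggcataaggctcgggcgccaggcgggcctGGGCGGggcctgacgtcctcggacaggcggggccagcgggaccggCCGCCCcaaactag
Lamb1: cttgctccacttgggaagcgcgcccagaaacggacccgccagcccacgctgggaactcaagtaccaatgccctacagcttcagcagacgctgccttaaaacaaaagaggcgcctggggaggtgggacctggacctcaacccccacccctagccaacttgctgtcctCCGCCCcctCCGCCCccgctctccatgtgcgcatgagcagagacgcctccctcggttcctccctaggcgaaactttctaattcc
Lamb3: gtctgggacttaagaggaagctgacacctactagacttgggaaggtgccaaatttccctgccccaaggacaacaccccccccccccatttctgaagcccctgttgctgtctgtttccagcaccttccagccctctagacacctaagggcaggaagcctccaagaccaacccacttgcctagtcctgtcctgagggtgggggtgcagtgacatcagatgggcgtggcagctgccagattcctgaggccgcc
Lama2: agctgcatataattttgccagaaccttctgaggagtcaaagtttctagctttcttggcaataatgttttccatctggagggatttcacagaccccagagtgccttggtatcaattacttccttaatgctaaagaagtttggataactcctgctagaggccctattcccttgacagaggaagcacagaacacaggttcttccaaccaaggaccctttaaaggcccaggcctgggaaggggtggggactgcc

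The Lama5 window held 4 GC boxes and 19 CpG pairs, with 72.4% G and C, and the Lamb1 window held 2 GC boxes and 14 CpG pairs, with 62% G and C. The Lamb3 window held 0 GC boxes and 2 CpG pairs with 58.8% G and C, and the Lama2 window 0 GC boxes and 0 CpG pairs with 47.2%. Of 32807 promoter windows of this length, 32.7% held a GC box on either strand, the median window had 6 CpG pairs, and the median G and C content was 52.4%. The AP-1 site TGANTCA was in none of these 4 windows and in 6.75% of all windows, searched on both strands. The E-box CANNTG, which could overlap the other motifs only in part, occurred in 66.2% of all windows and in each of the 4 shown, with 3 matches for Lamb3, 2 each for Lama5 and Lamb1 and 1 for Lama2. Lamb3 has a further RefSeq start, whose window at chr1:193301993-193302242 held 0 GC boxes, 0 AP-1 sites, 1 E-box and 3 CpG pairs, with 61.2% G and C. Among the chains that were higher in the ridge, Lama5 and Lamb1 thus had windows rich in CpG pairs, and neither Lamb3 window was.

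Signal was compared as the log2 of the processed signal minus the 75th percentile of the same array, and 0 thus marks that percentile. That percentile was 341 to 564 units on the AER arrays and 257 to 444 on the ectoderm arrays, 47.6% to 54.2% and 47.7% to 49.9% of probes were well above background, and 0 probes were saturated. Pairs of AER arrays had a gene-wide r of 0.980 to 0.988, pairs of ectoderm arrays 0.985 to 0.995, and pairs with 1 array of each 0.946 to 0.968. Repeated spots varied more on AER replicates 1 and 2, with a median coefficient of variation of 12.3% and 12.4% in the file headers, than on AER replicate 3 (3.95%) and the ectoderm arrays (4.10% to 4.28%). The ridge marker Fgf8 stood at 5.84, 6.43 and 6.54 on the AER arrays, against -2.33, -1.42, 2.20 and -1.40 on ectoderm replicates 1 to 4, so ectoderm replicate 3 held more ridge transcript than the other ectoderm arrays. Ectoderm replicates 2 and 4 were the closest pair (r = 0.995), and their scanner files carry the same number, so whether they are separate pools is not certain. They were counted as 2, as the labels list them, and with both averaged into 1 sample 5 chains were still higher and 1 lower. The values of the 9 chains differed by a root mean square of 0.11 between those arrays, against 0.33 to 0.58 between other ectoderm pairs, 0.38 to 0.71 within AER and 1.40 to 2.43 between the groups.

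Of the 9 chain genes, 5, Lama1, Lama5, Lamb1, Lamb3 and Lamc1, were higher in the AER arrays, 1, Lama2, was lower, and 3, Lama3, Lama4 and Lamb2, did not pass the test. Over all 20828 genes tested 15.7% differed, 7.01% higher and 8.65% lower, at an adjusted p under 0.05 (limma's moderated test, Benjamini-Hochberg adjustment over all genes). The differences of the 9 chains ran from -3.15 to 2.79 on the log2 scale, with a median of 0.72, beside -0.08 over all genes. The AER arrays lay wholly above the ectoderm arrays for 5 chains and wholly below for 2, where 12.5% and 17.9% of all genes did so, 30.4% in all. All 9 genes had a probe that passed the filter on dim probes, and the brightest such probe stood for the gene. Centring each array on pan-epithelial genes in place of the 75th percentile lowers every difference by the same amount, put the all-gene median at -1.64, and turned Lamb1 to -0.84 and Lamc1 to -0.18. With that centring 2 of the 9 chains were higher and 5 lower. The calls of all genes, 1460 higher and 1802 lower, became 236 higher and 19507 lower with it, and 1931 higher and 1435 lower when only probes above background on all 7 arrays set the percentile.

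**Figure D1:**
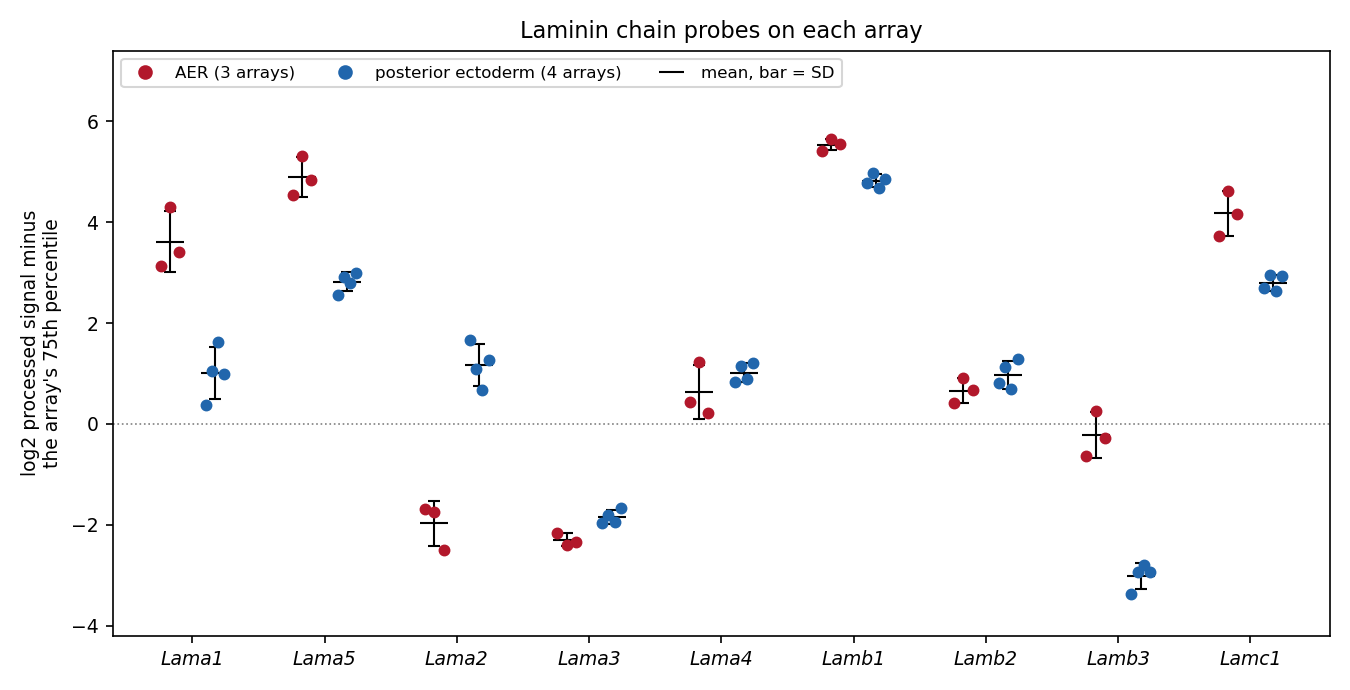
Each point is 1 array: the log2 processed signal of the probe used for a chain, minus the 75th percentile of that array, with AER left of posterior ectoderm, and black bars giving the mean and SD of 3 AER and 4 ectoderm arrays. The groups do not overlap for Lama1, Lama5, Lama2, Lama3, Lamb1, Lamb3 and Lamc1, and they overlap for Lama4 and Lamb2. Heights of different chains come from different probes and are not comparable.

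Among the alpha chains, which give a laminin its receptor binding and its tissue, Lama1 and Lama5 were higher in the ridge. Lama1 encodes the chain of laminin 111, a laminin of early embryonic basement membranes. It stood at 3.14, 4.30 and 3.40 on the AER arrays, against 0.37, 1.05, 1.62 and 0.99 on the ectoderm arrays (log2 signal). The groups did not overlap, and the highest ectoderm value was that of replicate 3, the ectoderm array with the most Fgf8. Of the other chains higher in the ridge, Lamb3 was also highest in ectoderm on that replicate (-2.80). Lamb1 (4.68) and Lamc1 (2.64) were lowest in ectoderm there, and Lama5 (2.79) lay below ectoderm replicates 2 and 4. The means were 3.61 ± 0.61 in AER (SD, n = 3) and 1.01 ± 0.51 in ectoderm (SD, n = 4). Lama1 was 6.09-fold higher in AER (95% CI 3.52 to 10.5; limma adjusted p = 0.00133), and the log2 difference was 2.26 to 2.84 with any 1 array left out. Under pan-epithelial centring it was 1.05.

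Lama5 encodes the alpha chain of laminins 511 and 521, which are found under most epithelia, and mouse embryos without it have fused digits. Its values were 4.54, 5.32 and 4.84 on the AER arrays and 2.56, 2.92, 2.79 and 2.99 on the ectoderm arrays. The groups were well apart, with a gap between the lowest AER and the highest ectoderm array larger than the range within either group. The means were 4.90 ± 0.40 in AER (SD, n = 3) and 2.82 ± 0.19 in ectoderm (SD, n = 4), a 4.23-fold difference (95% CI 3.03 to 5.91; limma adjusted p = 0.000309). Under pan-epithelial centring the difference was 0.53, with adjusted p = 0.0754.

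Lama2 went the other way. It encodes the alpha chain of laminin 211, the laminin of the muscle fibre surface and of Schwann cells, whose loss causes a muscular dystrophy. The probe used for the gene stood at -1.68, -1.75 and -2.49 on the AER arrays, against 1.67, 1.10, 0.66 and 1.27 on the ectoderm arrays. Every AER array lay below every ectoderm array, and the lowest ectoderm value was again that of replicate 3. The probe was dim in AER, with 69.8 to 167 units, against 406 to 1305 units in ectoderm. The means were -1.97 ± 0.45 in AER (SD, n = 3) and 1.18 ± 0.42 in ectoderm (SD, n = 4), so Lama2 was 8.87 times lower in AER (95% CI 5.68 to 13.9; limma adjusted p = 0.000159). The second Lama2 probe stood at -3.69, -3.30 and -3.62 on the AER arrays and at 0.59, 0.27, -0.27 and 0.18 on the ectoderm arrays, and it was not well above background on AER replicate 1. Its difference was -3.73, with adjusted p = 2.40e-05 in the fit over all 28282 probes. In that fit 5 laminin probes were higher and 2, both of Lama2, lower, where 15.0% of all probes differed, 6.95% higher and 8.03% lower. With the normexp background correction the differences were smaller, at -2.72 for the probe used for the gene and -2.54 for the second.

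Lama4 and Lama3 did not pass the test. Lama4, the alpha chain of laminin 411 in vessel walls and nerves, stood at 0.43, 1.23 and 0.22 on the AER arrays and at 0.83, 1.14, 0.89 and 1.21 on the ectoderm arrays. AER replicate 2 lay above all ectoderm arrays and the other AER arrays below them. The difference was -0.39 (95% CI -0.96 to 0.18; limma adjusted p = 0.316), and without AER replicate 2 it was -0.69 with adjusted p = 0.0336. Lama3 belongs to laminin 332 and is taken up with its partners below.

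The beta 1 and gamma 1 chains enter laminins 111, 211, 411 and 511 alike, so the signal of their genes cannot be assigned to any 1 of them. Lamb1, the beta 1 chain, stood at 5.42, 5.65 and 5.55 on the AER arrays, against 4.77, 4.98, 4.68 and 4.86 on the ectoderm arrays. The groups did not overlap and each was narrow, with SDs of 0.12 and 0.13. Lamb1 was 1.64-fold higher in AER (95% CI 1.31 to 2.06; limma adjusted p = 0.0108), a difference that turned to -0.84 under pan-epithelial centring. The call was lost with the normexp background correction (0.33, adjusted p = 0.314), with the authors' processed values (0.46, adjusted p = 0.132) and with AER replicates 1 and 2 both left out (0.73, adjusted p = 0.0689).

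Lamc1, the gamma 1 chain without which the early embryo forms no basement membrane, stood at 3.72, 4.63 and 4.17 on the AER arrays, against 2.69, 2.95, 2.64 and 2.93 on the ectoderm arrays. The AER arrays were all higher, and spread more widely than the ectoderm arrays. The means were 4.17 ± 0.45 in AER (SD, n = 3) and 2.80 ± 0.16 in ectoderm (SD, n = 4). Lamc1 was 2.59-fold higher in AER (95% CI 1.83 to 3.67; limma adjusted p = 0.00355), with -0.18 and adjusted p = 0.534 under pan-epithelial centring. Lamb2, the beta 2 chain of laminin 521 and of the neuromuscular synapse, stood at 0.42, 0.90 and 0.67 on the AER arrays and at 0.80, 1.13, 0.68 and 1.29 on the ectoderm arrays. These groups overlapped, and the difference of -0.31 (95% CI -0.77 to 0.14) did not pass (limma adjusted p = 0.315).

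Laminin 332 anchors basal epidermal cells to the dermis, and its loss causes skin blistering. Of its chains among the 9, Lamb3 was higher and Lama3 did not pass the test. Lamb3, its beta chain, stood at -0.63, 0.26 and -0.28 on the AER arrays, against -3.38, -2.94, -2.80 and -2.93 on the ectoderm arrays. The groups were far apart, and the probe was well above background on all 7 arrays, with 220 to 675 units in AER and 37.0 to 57.8 units in ectoderm. Lamb3 was 6.93-fold higher in AER (95% CI 4.75 to 10.1; limma adjusted p = 0.000121). With normexp, whose added offset of 50 units shrinks differences of dim probes, the difference was 1.44 in place of 2.79.

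Lama3, the alpha chain of the same trimer, was not raised. Its brighter probe, at chr18:12741067-12741126, stood at -2.16, -2.39 and -2.34 on the AER arrays and at -1.97, -1.81, -1.94 and -1.67 on the ectoderm arrays. The AER arrays lay below the ectoderm arrays by a narrow margin, and the difference of -0.45 (95% CI -0.78 to -0.11) did not pass (limma adjusted p = 0.0753). The probe was dim, with 76.4 units on the dimmest AER array and 67.0 on the dimmest ectoderm array, and the other Lama3 probe, at chr18:12741458-12741517, was well above background on 1 of the 7 arrays, ectoderm replicate 2, so it did not enter the test. Lamc3, another gamma chain gene and not 1 of the 9, was not well above background on any of the 7 arrays.

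By trimer, then, laminins 111 and 511 had all 3 of their chain genes higher in the AER arrays, with 2.61, 0.72 and 1.37 for Lama1, Lamb1 and Lamc1 and 2.08 for Lama5, while Lamb1 and Lamc1 turned under pan-epithelial centring. Laminin 332 had its beta chain gene higher and its alpha chain gene at -0.45. Laminin 411 had an alpha chain gene at -0.39, and laminin 211 had one that was lower at -3.15, beside the same Lamb1 and Lamc1. On 7 of the 9 chains AER replicate 2 was the highest AER array, the exceptions being Lama2 and Lama3. The rows of the slide both held AER and ectoderm arrays. Within row 1 the differences were 2.13 for Lama1, 1.78 for Lama5, -2.82 for Lama2, 2.41 for Lamb3, 0.96 for Lamc1 and 0.61 for Lamb1, and within row 2 they were 2.86, 2.09, -3.39, 2.92, 1.47 and 0.74 in the same order. There was a single AER array in row 1 and a single ectoderm array in row 2, each assumed to vary like the other group, and Lama1 did not pass in row 1 (adjusted p = 0.107), nor did Lamc1 (0.0984 and 0.0787) and Lamb1 (0.205 and 0.595) in either row.

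**Figure D2:**
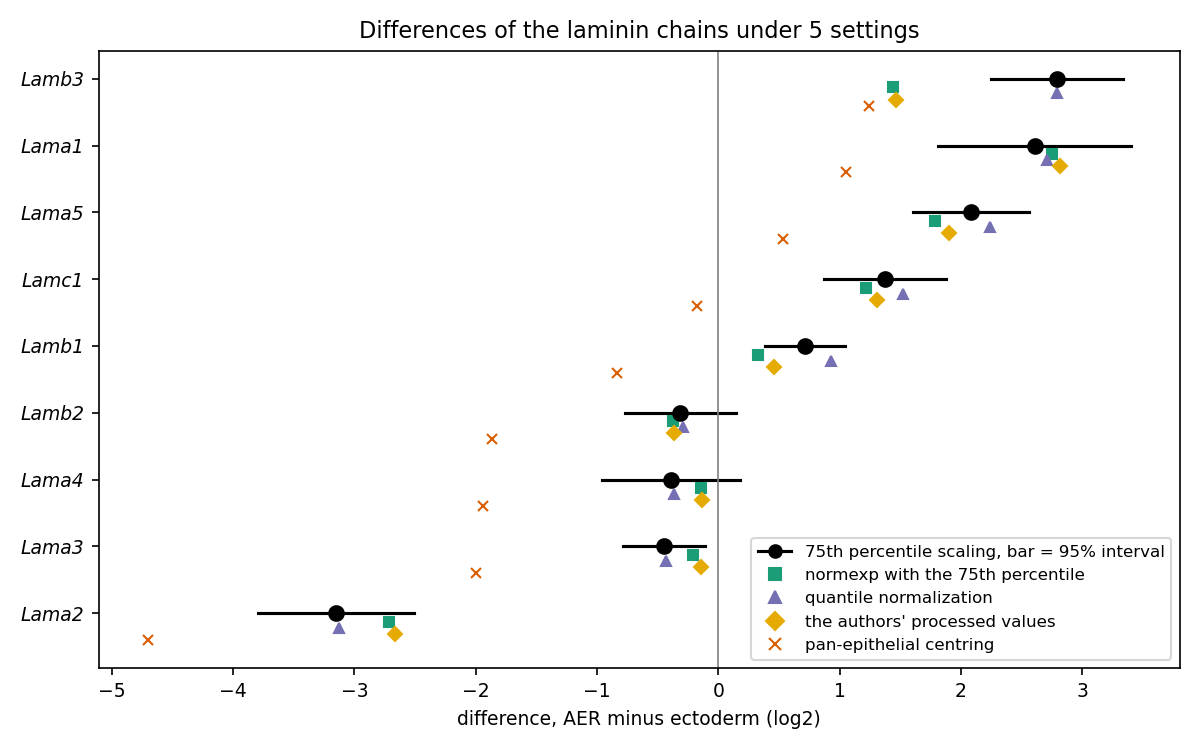
Log2 difference, AER minus ectoderm, for each chain: the black point and bar give the value with 75th percentile scaling and its 95% interval, and the smaller marks below it give 4 other settings. Lamb3, Lama1 and Lama5 stayed above 0 in all 5 settings, and Lama2, Lama3, Lama4 and Lamb2 below 0. Lama3, Lama4 and Lamb2 did not pass the test with 75th percentile scaling. Lamb1 and Lamc1 fell below 0 under pan-epithelial centring.

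Dissected pieces can hold more than 1 cell type, and in such bulk samples fewer cells of a type and less RNA per cell cannot be told apart. Epithelial markers moved with the chains that were higher: 18 of 24 pan-epithelial genes were higher in AER and 0 lower, and their summed signal, in multiples of the 75th percentile, was 135 to 154 on the AER arrays and 45.6 to 61.8 on the ectoderm arrays. The brightest of them were the keratin gene Krt18, which was higher (0.83, limma adjusted p = 0.0194), and Spint2 (-0.45, adjusted p = 0.286). Basal epidermal genes had 3 higher and 1 lower of 6 tested, with sums of 168 to 187 in AER and 73.7 to 117 in ectoderm, and with Dsc3 at background on all AER arrays and Dsg3 on all ectoderm arrays. The brightest, Krt5 (0.78, limma adjusted p = 0.0436) and Perp (1.60, adjusted p = 0.00211), were both higher. The gene that was lower was Krt15, another basal keratin gene and the largest difference of the list (-5.60, limma adjusted p = 0.0013), and Trp63, the p63 gene of basal cells, differed by -0.25 (adjusted p = 0.408). Known AER genes had 13 of 14 tested higher, with sums of 346 to 447 in AER and 44.9 to 79.4 in ectoderm, and with Fgf17 and Sp9 at background on all ectoderm arrays. The signal genes Bmp4 (2.28) and Wnt5a (2.05), the brightest of that list, were among those higher. The part of these markers in the higher Lama1, Lama5, Lamb1, Lamb3 and Lamc1 was not tested.

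Muscle and mesenchyme markers moved with Lama2. All 10 skeletal muscle progenitor genes tested were lower in AER, with sums of 0.809 to 3.94 on the AER arrays and 56.8 to 145 on the ectoderm arrays. Of that list of 12, Des, Myf5 and Myf6 were at background on all AER arrays, and Myf5 and Myf6 on all ectoderm arrays too. The brightest were Actc1, a muscle actin gene (-7.43, limma adjusted p = 0.00203), and Cdh15, a muscle cadherin gene (-5.18, adjusted p = 2.46e-05). Limb mesenchyme genes had 12 of 16 lower and 0 higher, with sums of 243 to 280 in AER and 496 to 775 in ectoderm. Col1a2, a collagen I gene, was lower (-1.09, limma adjusted p = 0.0112) and Prrx2, a mesenchymal transcription factor gene, differed by 0.40 (adjusted p = 0.228). Both sums were lowest among the ectoderm arrays on replicate 3, as was Lama2. The highest ectoderm values were those of replicate 4 for both sums (145 and 775) and of replicate 1 for Lama2 (1.67). Among the AER arrays the muscle sum was highest on replicate 3 (3.94) and lowest on replicate 1 (0.809). The mesenchyme sum was nearly equal on these replicates (280 and 278). The Lama2 probe used for the gene was lowest on replicate 3 (-2.49), and the second probe on replicate 1 (-3.69, against -3.62 on replicate 3). The part of either list in the Lama2 difference was not tested.

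For the vascular and neural chains the markers were mixed. Of 12 endothelial genes 0 passed the test in limma, in either direction, with sums of 41.3 to 56.6 in AER and 37.6 to 50.2 in ectoderm. The brightest were Egfl7 (0.48, adjusted p = 0.138 in limma) and the VEGF receptor gene Kdr (-0.36, adjusted p = 0.453). Smooth muscle and pericyte genes had 3 lower and 0 higher of 5 tested, with sums of 15.9 to 21.2 in AER and 32.1 to 58.6 in ectoderm, and with Kcnj8 and Myh11 at background on all arrays and Rgs5 on all ectoderm arrays. Acta2, smooth muscle actin, was lower (-3.87, limma adjusted p = 0.000224), and Notch3 differed by -0.45 (adjusted p = 0.0838). Schwann and neural crest genes had 1 higher and 0 lower of 3 tested, with sums of 10.3 to 21.4 in AER and 2.74 to 7.10 in ectoderm. The gene that was higher was Ngfr (2.12, limma adjusted p = 0.0105), and Sox10 differed by -1.38 (adjusted p = 0.0888). Ngfr made up most of the sum, and without it the other 6 genes summed to 0.514 to 0.898 in AER and 0.647 to 1.48 in ectoderm. Of that list, S100b was at background on all arrays, Fabp7 and Foxd3 on all AER arrays and Erbb3 on all ectoderm arrays.

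A ratio of 2 genes within an array does not depend on how arrays are scaled, so each chain was also set against Lamc1 on the same array. Relative to Lamc1, Lamb3 was higher in AER by 1.42, Lama1 by 1.23 and Lama5 by 0.71 on the log2 scale. Lamb1 differed by -0.66, Lamb2 by -1.69, Lama4 by -1.76, Lama3 by -1.82 and Lama2 by -4.52. Lamc1 itself was higher in AER by 1.37, so each of these values is the chain's own difference less that rise. On their own values Lama4 and Lamb2 overlapped between the groups. For each of the 8 chains all 3 AER ratios lay on 1 side of all 4 ectoderm ratios. In the two-sided exact permutation test over 35 splits this gave p = 0.0571, the smallest p that 3 against 4 arrays allow. After adjustment over the 8 chains the permutation p was 0.0571 too. The share of all genes separated in this way when set against Lamc1 was not computed. The ratio of Lama5 to Lamc1, which can be compared between groups but not read as a ratio of transcripts, ran from 0.67 to 0.81 on the AER arrays and from -0.12 to 0.15 on the ectoderm arrays. With normexp the Lamb3 ratio shrank to 0.23, so its size depends on the treatment of dim signal.

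**Figure D3:**
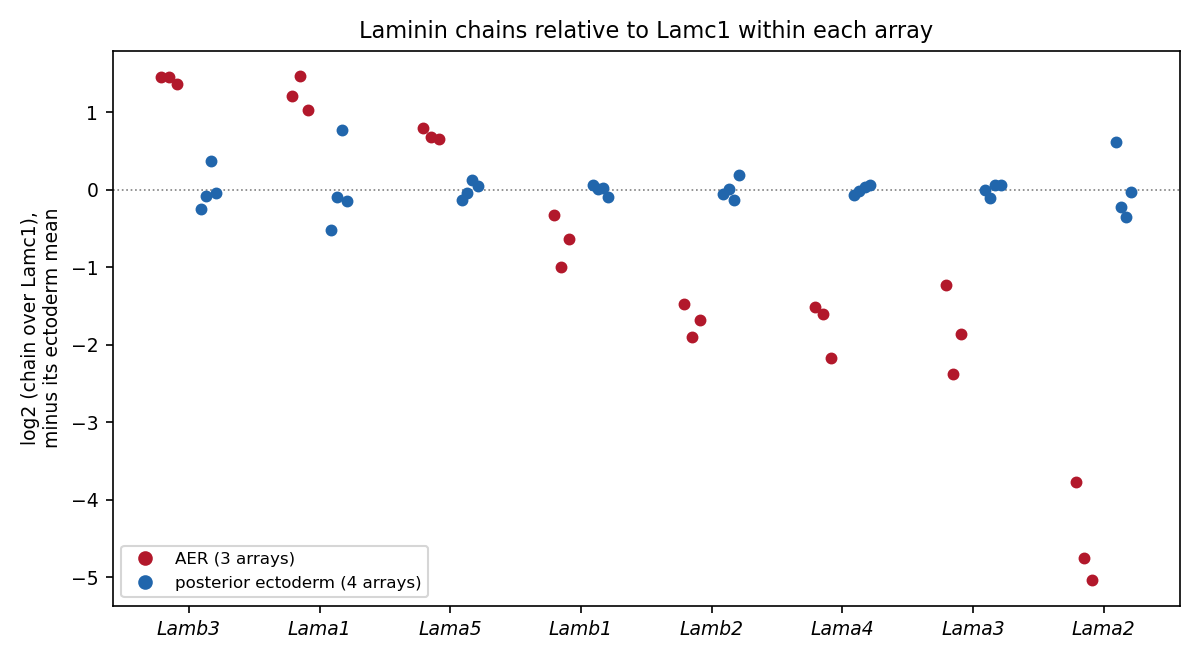
Each point is 1 array: the log2 value of a chain minus that of Lamc1 on the same array, shifted so that the ectoderm mean of each chain is 0, with AER left of ectoderm. Lamb3, Lama1 and Lama5 lie above 0 on all 3 AER arrays, and Lamb1, Lamb2, Lama4, Lama3 and Lama2 lie below 0. Lamc1 itself was higher in AER by 1.37, which lowers every AER point by that amount on average.

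Some laminin receptor genes were also higher in the ridge. Of 15 genes for receptors and for the proteins that link them, 14 were tested, 6 were higher in AER, 1 was lower and 7 did not pass, with a median difference of 0.97 beside -0.08 over all genes. Under pan-epithelial centring 1 was higher and 6 were lower. The 6 were Col17a1, a hemidesmosome collagen (2.27), Bcam, a receptor for the alpha 5 chain (1.78), the laminin-binding integrin genes Itga6 (1.67), Itga3 (1.39) and Itgb4 (1.39), and Cd151, a tetraspanin partner of those integrins (1.54), with limma adjusted p from 0.00025 to 0.00445. Itga6, the alpha subunit of the hemidesmosome integrin, stood at 5.22, 5.64 and 5.63 on the AER arrays and at 3.61, 3.96, 3.78 and 3.96 on the ectoderm arrays, with no overlap. Itgb1, the common beta subunit, differed by 0.15 (adjusted p = 0.483) and the dystroglycan gene Dag1 by 0.37 (adjusted p = 0.182). Sgcb, a sarcoglycan of the muscle dystroglycan complex, was lower at -0.58 (limma adjusted p = 0.0398), a call lost without AER replicate 2 or 3 and without any 1 of the ectoderm arrays.

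Other basement membrane genes were divided. Of 19 genes 18 were tested, 8 were higher in AER, 1 was lower and 9 did not pass, with a median of 0.49. Over all genes tested 7.01% were higher and 8.65% lower. Under pan-epithelial centring 0 were higher and 12 lower, where 236 of all 20828 genes were higher and 19507 lower. Frem2 (2.01) and Fras1 (1.49), of the Fraser complex that holds epidermis to dermis, and the genes for perlecan, Hspg2 (1.00), agrin, Agrn (0.93), and a collagen IV chain, Col4a2 (0.94), were higher, with limma adjusted p from 0.000523 to 0.00926. Col4a1, the gene of another collagen IV chain, differed by 0.20 and did not pass (limma adjusted p = 0.696). Nid1 and Nid2 encode nidogen proteins, which bind the gamma 1 chain and bridge laminin to collagen IV. These 2 genes differed by 0.04 and 0.09 and did not pass (limma adjusted p = 0.882 and 0.736). Smoc1, a secreted matrix protein of basement membranes, was the member that was lower, at -3.67, -3.08 and -3.13 on the AER arrays and 2.70, 2.22, 2.56 and 2.28 on the ectoderm arrays (difference -5.73; limma adjusted p = 4.25e-06). It was well above background on 2 of the 3 AER arrays. With the authors' processed values 5 of the 18 were higher, and with AER replicates 1 and 2 both left out 2 were.

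**Figure D4:**
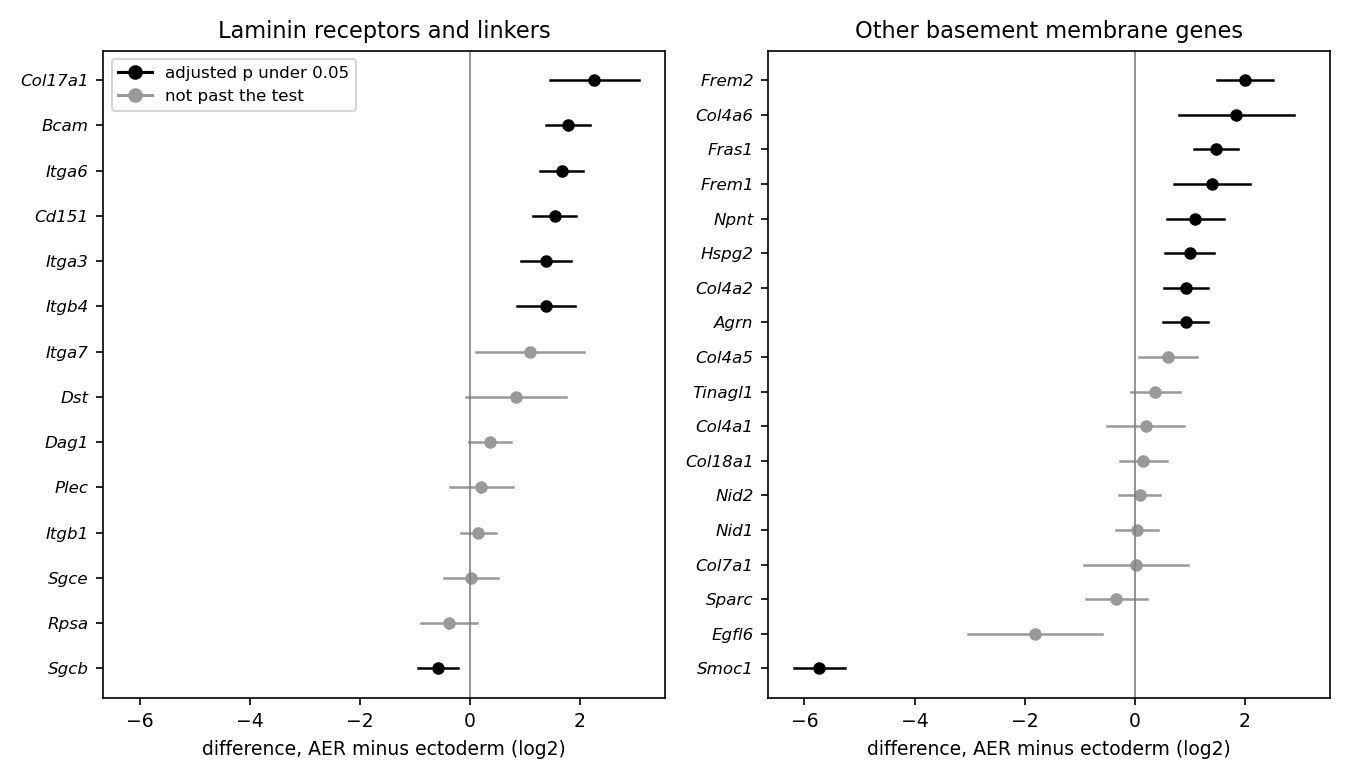
Log2 difference, AER minus ectoderm, with its 95% interval, for laminin receptors and linkers (left) and other basement membrane genes (right). Black marks passed the test (6 higher and 1 lower on the left, 8 higher and 1 lower on the right) and grey marks did not. Under pan-epithelial centring 1 and 0 were higher, as were 236 of all 20828 genes.

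The gene with the profile closest to each chain was found by the root mean square difference of centred log2 values over the 7 arrays, among genes with a proper symbol. Frem2 was closest to Lama5 (0.05), Nkx1-2 to Lama1 (0.21), Vldlr to Lamb3 (0.14), Cd2ap to Lamc1 (0.09) and Clcn3 to Lamb1 (0.07). Rasl10a was closest to Lama2 (0.22), Nt5c3b to Lama3 (0.04), Asxl3 to Lama4 (0.07) and Jarid2 to Lamb2 (0.06). None of the 9 closest genes was another laminin chain. Because so many genes were searched, that does not show that the chains vary independently. The 7 arrays share 1 slide and fall into 2 groups, so the likeness to a closest gene includes that of the group differences themselves.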

How the data were processed

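The authors deposited 1 Agilent scanner file per array (1-colour, Cy3, 75 ng of total RNA, per the labels), whose processed signal is an intensity, background-subtracted and detrended by Feature Extraction 10.7.3.1, and not scaled across arrays, per the file headers. Other columns of the deposited files hold the flags used here. All 7 arrays shared 1 slide and 1 scan time. The deposited matrix is on a log2 scale and agreed within 0.000108 with normexp (offset 50) and quantile normalization by limma, the tool in the submitters' processing notes.

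Control spots were left out, and spots of a probe averaged. Uneven and outlying spots were left out of that average, except where all spots of a probe on an array were so flagged. Of 55681 probes, the 28282 well above background on at least 3 arrays were kept (50.8%). Genes took the name of their RefSeq accession (26300 probes), symbol or older symbol, or else that of the file, and were represented by the kept probe with the highest mean. AER and ectoderm were compared with limma 3.58.1 (lmFit, eBayes, two-sided, 5 residual and 3.49 prior degrees of freedom) and adjusted p under 0.05 as the threshold, using R 4.3.3 and version 1.17.8 of data.table. The fit was tested on simulated data. Python 3.11.15, pandas 2.3.3, numpy 2.4.6 and matplotlib 3.10.9 were used for sequences and plots.

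Named genes were the 9 chains, Lamc3, the 6 smallest p and opposite calls of the receptor and basement membrane lists, the 2 brightest genes of each marker list, and the closest gene of each chain. Fgf8, Itgb1, Dag1, Col4a1, Nid1, Nid2, Krt15, Trp63 and marker genes named as at background are outside that rule and were chosen after their values were seen. The chains, lists and tests were chosen with earlier results of these data known, and some items are not reported here. Nothing in the labels ties the replicates to litters, so p-values measure the spread between these pools, and the number of arrays limits precision.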

Additional observations from a re-analysis of the deposited data

How the results depend on the processing

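Lama2 and Lamb3 kept their direction and their call under all 23 other settings tried (the authors' processed values gave the same values as normexp with quantile normalization and are counted with it), though pan-epithelial centring moved them to -4.70 and 1.24. Lama1 lost its call in 1 of them (slide row 1) and Lama5 in 1 (pan-epithelial centring). Lamb1 lost it in 6 and turned in 1 (-0.84), and Lamc1 lost it in 2 and turned in 1 (-0.18), both turns under pan-epithelial centring. That centring called 19743 genes and 26709 probes in all, with 2 laminin genes higher and 5 lower, and 2 laminin probes higher and 6 lower. It gave Lama4 -1.94 and Lamb2 -1.87, both past the threshold, as Lama3 then was. Within slide row 1 the counts were 652 genes and 885 probes, with 2 laminin genes and 2 laminin probes higher, and within row 2 they were 1369 genes and 1698 probes, with 3 laminin genes and 3 probes higher. These fits hold fewer arrays. Leaving out AER replicates 1 and 2 together, added after seeing the data, 1526 genes and 1952 probes differed, and 4 laminin genes were higher and 1 lower. AER replicate 3 was then taken to vary as the ectoderm arrays do. A filter on probes above background on all arrays left 1 laminin probe lower, because the second Lama2 probe was not tested. That filter, and using no filter on dim probes, could not move the gene-level difference of any chain and altered only its test. For chains with 1 kept probe, the same held for the mean of a gene's probes and for its dimmest kept probe. Leaving out 1 array at a time gave 2188 to 3272 genes and 2817 to 4216 probes, the lowest both without ectoderm replicate 4, with 5 laminin genes higher throughout and 1 to 2 lower (2 without AER replicate 2), and with 5 laminin probes higher and 2 to 3 lower. Averaging ectoderm replicates 2 and 4 gave 2258 genes, with 5 laminin genes higher and 1 lower.

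Deviations of same-numbered arrays correlated at -0.03, 0.19 and 0.13 for numbers 1 to 3, so the numbers were not taken to pair the samples. Ectoderm replicate 4 has no partner, so it adds nothing to the difference in the blocked fit. With the replicate block 2442 genes and 3035 probes differed, 4 laminin genes were higher and 1 lower, and Lamb1 stood at 0.73 with adjusted p = 0.0658.

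Ratios to Lamc1 under normexp were -1.36 for Lama4, 0.57 for Lama5 and 0.23 for Lamb3. Without 1 array at a time they ran from 1.06 to 1.49 for Lama1, -4.90 to -4.26 for Lama2, -2.12 to -1.55 for Lama3, -1.89 to -1.56 for Lama4, 0.66 to 0.75 for Lama5, -0.82 to -0.48 for Lamb1, -1.79 to -1.58 for Lamb2 and 1.34 to 1.54 for Lamb3. Signal over background limits the reading of Lama3 in both groups, of Lamb3 in ectoderm and of Lama2 in AER. The cause of the other changes was not tested.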
